A study of Xenopus laevis with 2 samples.

Results

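Cadherins and protocadherins were described in animal caps of Xenopus laevis that had been made to express xnr2, which encodes a secreted Nodal signal. The animal cap is the ectodermal roof of the blastula. The members are the gene models whose symbol, in the human spelling used by the deposited table, is that of a numbered cadherin (CDH), a protocadherin (PCDH), a Fat or Dachsous cadherin (FAT, DCHS) or an alpha- or delta-catenin (CTNNA, CTNND). The rule used names only and found 67 of 24364 models, which carry 36 symbols. They comprise 30 cadherin models, 28 protocadherin models, 5 Fat and Dachsous models and 4 catenin models.

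The 2 libraries form 1 group. Per the labels, embryos of the 2- to 4-cell stage were injected with xnr2 RNA, caps were cut at stage 10 and cultured until stage 14, the neural plate stage, and each RNA came from a pool of 10 explants. Library 1 held 25880104 exon reads and library 3 held 29238297. No control caps were analysed here, so a level below is a level in xnr2 caps and not a response to xnr2. The labels do not tie the libraries to different clutches, so their spread may be technical, and no test between groups was possible.

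Cadherins are calcium-dependent adhesion proteins of the cell surface. The classical ones bind the same cadherin on the next cell and are tied to actin inside the cell by beta-catenin and alpha-catenin, while delta-catenin (p120) holds them at the membrane. Protocadherins adhere weakly and lack these catenin tails. In the Xenopus gastrula the paraxial protocadherin PAPC is known to act in cell sorting and convergent extension of the mesoderm, axial protocadherin (PCDH1) is known from the notochord, E-cadherin (CDH1) from epidermis and N-cadherin (CDH2) from the neural plate. Fat and Dachsous cadherins are giant partners that bind each other across cells and act in planar polarity and growth control.

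Levels are given in CPM, reads per 1000000 exon reads of the library, and differ between genes partly through exon length. Levels of different genes are therefore compared in CPM per kilobase of exon. Each mean has its SD over the 2 libraries (n = 2).

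The members together took 0.422% of exon reads in library 1 (exact 95% binomial interval 0.419 to 0.424%) and 0.477% in library 3 (0.475 to 0.480%). These intervals cover counting error only, and the libraries differed by more than it. Of the 67 models, 33 reached 1 CPM in both libraries, where 62.8% of all models did. A mean of 10 CPM or more was reached by 22 models of 12 symbols, where 39.3% of all models did. There were 9 models with no read in either library, where 9.26% of all models had none. A smaller share of members than of all models thus reached 1 and 10 CPM, and the median member stood at 1.27 CPM, against 4.53 CPM over all models. The low median goes with a wide range: 2 members stood among the top 1% of all models, PCDH8 on 2L at rank 107 and PCDH8 on 7S at rank 190 by mean CPM. That placing rests partly on exon length. Per kilobase of exon these models ranked 331 and 474, and no member lay in the top 1%.

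**Figure D1:**
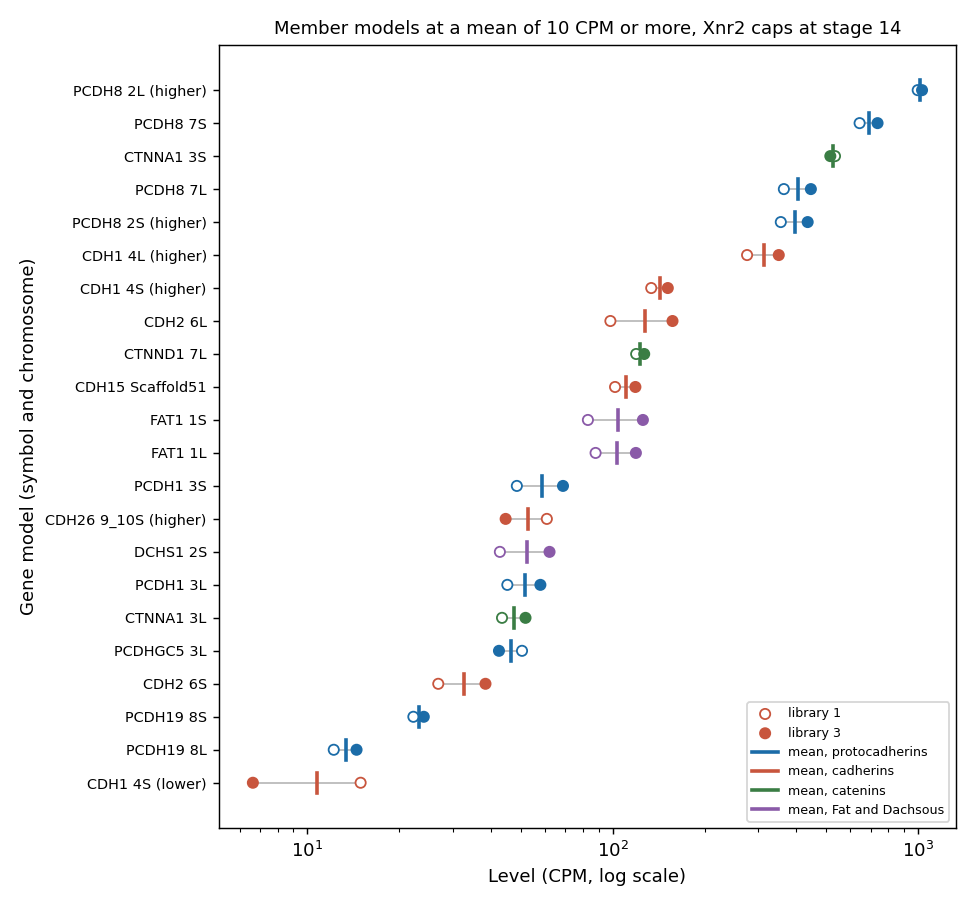
Level of each of the 22 member models at a mean of 10 CPM or more; the x axis is CPM on a log scale, open points are library 1, filled points library 3 and bars their mean, coloured by family. Models called PCDH8 and the CTNNA1 model on 3S lead, and all but 4 models lay further right in library 3. The matching share over all models at that level was not counted. Where a chromosome holds 2 models of a symbol, higher or lower says which by level.

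Models called PCDH8 led the members and took 56.0% of member reads in library 1 and 55.6% in library 3. There are 6 such models, and 4 of them were abundant. The model on chromosome 2L (132161557 to 132167719, minus strand, version 9.1 of the assembly) had 998 and 1031 CPM in libraries 1 and 3, or 1015 ± 23.4 CPM. The model on 7S (25209589 to 25216158) had 644 and 737 CPM, the model on 7L (30379614 to 30386341) had 364 and 446 CPM, and the abundant model on 2S (114234688 to 114242252) had 355 and 435 CPM. The order 2L, 7S, 7L, 2S was the same in both libraries. Per kilobase of exon the 4 models held 283 ± 6.52 (2L), 199 ± 19.0 (7S), 133 ± 19.0 (7L) and 109 ± 15.5 (2S). The SDs of the 7L and 2S models overlap, but both models were higher in library 3, and within a library 7L lay above 2S, at 119 over 97.6 per kilobase in library 1 and 146 over 119.6 in library 3.

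A further PCDH8 model lies beside each abundant one on 2L and 2S and was far lower. The 2L neighbour (132512281 to 132519949, plus strand) had 8 and 14 reads in libraries 1 and 3, and the 2S neighbour (114576387 to 114583554, plus strand) had 26 and 45 reads. The 2S neighbour thus just reached 1 CPM in both libraries, at 1.00 and 1.54 CPM. On 2L the abundant model stood 4474-fold above its neighbour per kilobase in library 1 and 2984-fold in library 3. On 2S the corresponding folds were 526 and 421. The members of each pair point in opposite directions, with 344561 bases between them on 2L and 334134 on 2S. From the symbol PCDH8 alone the Xenopus gene behind a model cannot be read. RefSeq's gene names for version 10.1 of the assembly list pcdh8 and pcdh8.2 on each of 2L and 2S, with papc as a synonym of pcdh8.L, and list pcdh8l alone of the PCDH8 genes on 7L and 7S, with pcns as a synonym of pcdh8l.S. The protocadherin PCNS is known in Xenopus from neural crest and somites. Positions were not carried between the assemblies, so which of the models on 2L and 2S is PAPC is not stated here.

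Among the other non-clustered protocadherins, PCDH1 and PCDH19 were expressed above 10 CPM from both copies. PCDH1, the axial protocadherin, had 45.2 and 58.0 CPM in libraries 1 and 3 on 3L (23169048 to 23303252) and 48.6 and 68.8 CPM on 3S (115231023 to 115387726). PCDH19, known in humans as an epilepsy gene, had 12.2 and 14.5 CPM on 8L (31149244 to 31267114) and 22.3 and 24.1 CPM on 8S (58912890 to 59037456). PCDH18 followed at 8.69 ± 1.75 CPM on 1L and 8.09 ± 1.67 CPM on 1S. Both copies were higher in library 1, and the 1L copy lay above the 1S copy within each library, at 9.93 over 9.27 CPM in library 1 and 7.46 over 6.91 CPM in library 3.

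The remaining non-clustered protocadherins were low. Of 4 models called PCDH10, those on 3L, 1S and 1L had means of 4.82, 4.28 and 3.07 CPM, and the one on 3S had 3 and 5 reads in libraries 1 and 3. RefSeq's names for version 10.1 place pcdh10 on 1L and 1S and list 0 genes of that name on 3L, so the chromosome 3 models may carry the symbol of their nearest human relative only. They were grouped as non-clustered by symbol alone, though the clustered models also lie on 3L and 3S. PCDH7, known in Xenopus as NF-protocadherin of the ectoderm, had 12 and 9 reads on 1L and 37 and 23 reads on 1S. PCDH12 on 3L (20 and 23 reads), PCDH20 on 2L (28 and 21 reads) and 2S (1 and 14 reads), and PCDH9 on 2L (5 and 17 reads) and 2S (1 and 1 reads) completed the group. At this depth 3 reads, the limit that a count of 0 allows, correspond to 0.116 CPM in library 1 and 0.103 CPM in library 3.

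Clustered protocadherins, which in vertebrates lie in tandem arrays and in mammals give neurons their surface identity, are represented by 5 models on 3L and 3S. Only the PCDHGC5 model on 3L (21137479 to 21175838) exceeded 1 CPM in both libraries, at 50.5 CPM in library 1 and 42.4 CPM in library 3. The PCDHGC5 model on 3S (117308855 to 117311323) had 0 and 1 reads, PCDHGC4 on 3L had 0 and 1, and PCDHAC2 had 1 and 1 reads on 3L and 1 and 0 on 3S. In mammals the transcripts of such an array share constant exons at their ends. The 3L model of PCDHGC5 spans introns, with 17.3% of its span in exons, whereas the 3S model is a single block, so that the models may not cover corresponding exons and reads of shared exons cannot be assigned to 1 gene.

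Among type I cadherins, the classical adhesion molecules, 1 CPM was reached by 6 of 9 models in each library. Of 4 models called CDH1, the higher on 4L (50157526 to 50191744) had 276 and 350 CPM in libraries 1 and 3, or 84.1 ± 14.1 CPM per kilobase. The higher on 4S (41974895 to 42005516) had 134 and 152 CPM, or 48.9 ± 4.31 per kilobase. Both lie beside a lower model in the same direction: 1 and 0 reads on 4L (50100595 to 50143619), and 15.0 and 6.64 CPM on 4S (41911922 to 41948368). RefSeq's names for version 10.1 list cdh1 and cdh3 on each of 4L and 4S. The synonyms of cdh3.S include XB-cadherin, P-cadherin, U-cadherin and cdhc-A, and also E-cadherin. Those of cdh1.S include ecad and cdhe. The symbol CDH1 therefore does not tell E-cadherin from its neighbour, and each CDH1 model, abundant or low, may be either gene.

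CDH2, N-cadherin, had 98.3 and 157 CPM in libraries 1 and 3 on 6L (111028164 to 111183309) and 26.9 and 38.3 CPM on 6S (87941975 to 87969997). Library 3 was the higher in both copies. Per kilobase the higher 4L model of CDH1 stood 3.32-fold above the 6L copy of CDH2 in library 1 and 2.64-fold in library 3. CDH15, known in mammals as M-cadherin of skeletal muscle, had 102 and 119 CPM from its model on Scaffold51 (556135 to 589937), or 23.4 ± 2.53 CPM per kilobase. The 6L copy of CDH2, at 29.0 ± 9.43 per kilobase, lay above CDH15 within each library, narrowly in library 1 (22.3 over 21.6) and more widely in library 3 (35.7 over 25.2), and the 6S copy stood at 13.7 ± 3.41. CDH4, R-cadherin, had 7 and 7 reads on 9_10L and 2 and 1 on 9_10S.

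Type II cadherins, which include endothelial and neural crest members, were low: 1 CPM was reached by 4 of 13 models in each library, and a mean of 10 CPM by none. The highest was CDH11, known in Xenopus from cranial neural crest migration, with 5.26 and 5.27 CPM in libraries 1 and 3 on 4L and 1.58 and 1.54 CPM on 4S. CDH22 had a mean of 1.56 CPM on 9_10L and CDH20 a mean of 1.28 CPM on 6L. CDH5, the endothelial VE-cadherin, had 2 and 1 reads on 4L and none on 4S. CDH6 had 1 and 6 reads on 6L and none on 6S, CDH24 had 3 and 7 reads on 1L, and the models of CDH7, CDH18 and CDH19 on 6S had no read.

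Of the other cadherins, 1 of 8 models exceeded 1 CPM in both libraries. A CDH26 model on 9_10S (14546911 to 14590578) had 60.9 and 44.6 CPM in libraries 1 and 3, or 17.2 ± 3.76 CPM per kilobase. The other CDH26 models had 6 and 12 reads (9_10S) and none (9_10L). CDH16, a kidney cadherin in mammals, had 9 and 15 reads, and CDH23, part of the hair cell tip link in mammals, had 21 and 9 reads. The intestinal CDH17 of mammals and both models of CDH13, the membrane-anchored T-cadherin, had no read.

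**Figure D2:**
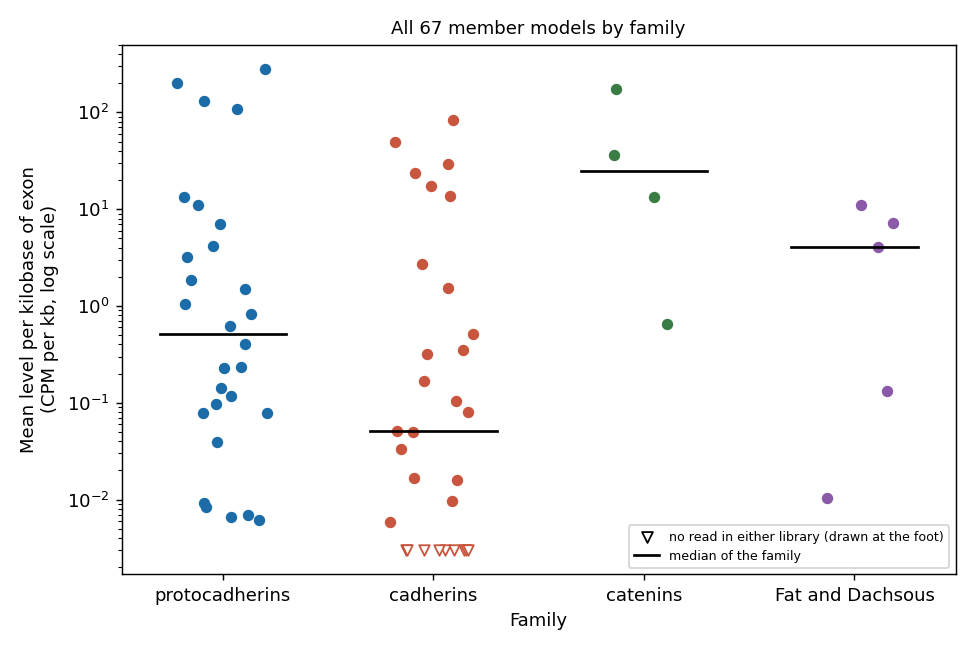
Mean level per kilobase of exon (CPM per kb, log y axis) of all 67 member models by family; each point is 1 model, bars are family medians and open triangles at the foot are the 9 models with no read in either library. All 9 belong to the cadherins. The 4 abundant PCDH8 models, at 109 or more, and the CTNNA1 model on 3S, at 174, stand highest.

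Among the giant cadherins, FAT1 was expressed from both copies, with 87.9 and 119 CPM in libraries 1 and 3 on 1L (36555951 to 36594906) and 83.0 and 126 CPM on 1S (32670601 to 32809024). DCHS1, the Dachsous member, had 42.7 and 62.1 CPM on 2S (159435860 to 159475466). These models are long, 9442 to 14471 bases of exon, and per kilobase they held 11.0 ± 2.34 (FAT1 1L), 7.21 ± 2.08 (FAT1 1S) and 4.06 ± 1.06 (DCHS1). The copies of FAT1 overlapped over the libraries in CPM, while per kilobase the 1L copy was the higher in each library, at 9.31 over 5.74 in library 1 and 12.6 over 8.68 in library 3. FAT2 was low, with 7 and 0 reads on 3L and 62 and 13 reads on 3S.

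The catenins were present throughout. CTNNA1, alpha-catenin, had 535 and 516 CPM in libraries 1 and 3 on 3S (14061630 to 14104014), the third highest member model by CPM and the third per kilobase at 174 ± 4.35. Its 3L copy (14963974 to 15007775) had 43.4 and 51.8 CPM. CTNND1, p120 catenin, had 119 and 127 CPM on 7L (53569958 to 53621183), or 36.0 ± 1.54 per kilobase, and CTNND2, the neural delta-catenin of mammals, had 1.35 and 1.81 CPM on 6L. Summed over the 4 models the catenins held 699 CPM in library 1 and 697 CPM in library 3.

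Partners of cadherins were read from 7 further lists, to be set beside the 62.8% of all models at 1 CPM and the median of 4.53 CPM over all models. Within a list the models are picked and ordered by CPM, which depends partly on exon length. The order per kilobase can differ. Of the classical catenin partners all 9 of 9 models passed 1 CPM in both libraries, and the median level was 34.8 CPM. They were led by beta-catenin, CTNNB1, at 648 ± 50.1 CPM (6S) and 550 ± 64.5 CPM (6L), the actin linker vinculin, VCL, at 85.6 ± 8.61 CPM (Scaffold19) and plakoglobin, JUP, at 50.03 ± 4.41 CPM (9_10L). In the list of genes reported to act with PAPC or on C-cadherin in Xenopus, 1 CPM was passed by 23 of 23 models, and the median level was 67.3 CPM. Its high models included the receptor FZD7 at 253 ± 33.4 CPM (9_10L) and the kinase subunit CSNK2B at 236 ± 3.67 CPM (8S) and 217 ± 40.8 CPM (8L).

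Genes of shedding and turnover passed 1 CPM in 17 of 19 models (median level 14.1 CPM). By CPM the protease ADAM10 led at 117 ± 4.53 CPM (3S), before the endosomal proteins HGS at 68.6 ± 1.63 CPM (9_10L) and RAB5A at 55.9 ± 4.53 CPM (6L) and 44.5 ± 3.06 CPM (6S). Per kilobase RAB5A on 6L, at 26.9 ± 2.18, stood above ADAM10 on 3S, at 22.6 ± 0.876. Repressors of cadherin genes passed it in 9 of 11 models (median level 21.1 CPM). Models called SNAI2, a Snail factor, stood at 147 ± 17.7 CPM (9_10L) and 125 ± 15.4 CPM (9_10S). Those called SNAI2 on 6L and 6S had means of 5.80 and 4.44 CPM. No model was called SNAI1 or TWIST1, so the symbol may not tell the Snail genes apart. The ZEB factors stood at 91.4 ± 6.67 CPM (ZEB1, 6S) and 65.6 ± 7.17 CPM (ZEB2, 9_10S).

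The Fat and Dachsous pathway passed it in 12 of 16 models (median level 5.96 CPM). The transcription factor TEAD1 led at 115 ± 24.3 CPM (7L) and 64.2 ± 9.81 CPM (7S), with its coactivator YAP1 at 37.8 ± 13.1 CPM (2S) and 37.2 ± 11.0 CPM (2L). Nectins and afadin, a second adhesion system, passed it in 9 of 14 models (median level 8.15 CPM), with PVRL3 at 32.4 ± 3.14 CPM (2L), afadin (MLLT4) at 30.5 ± 2.11 CPM (5S), PVRL1 at 21.9 ± 0.196 CPM (7L) and PVRL2 at 20.6 ± 4.04 CPM (7S). Cadherin-superfamily genes outside the name rule passed it in 10 of 20 models and had the lowest median of the 7 lists, 0.859 CPM. By CPM the Flamingo-type CELSR1 led at 57.2 ± 15.9 CPM (3S) and 27.2 ± 3.15 CPM (3L), with the desmosomal cadherins DSG2 at 40.5 ± 1.00 CPM (6L) and DSC2 at 26.25 ± 0.851 CPM (6L). Per kilobase DSG2 on 6L, at 10.8 ± 0.266, stood above CELSR1 on 3S, at 4.94 ± 1.37.

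**Figure D3:**
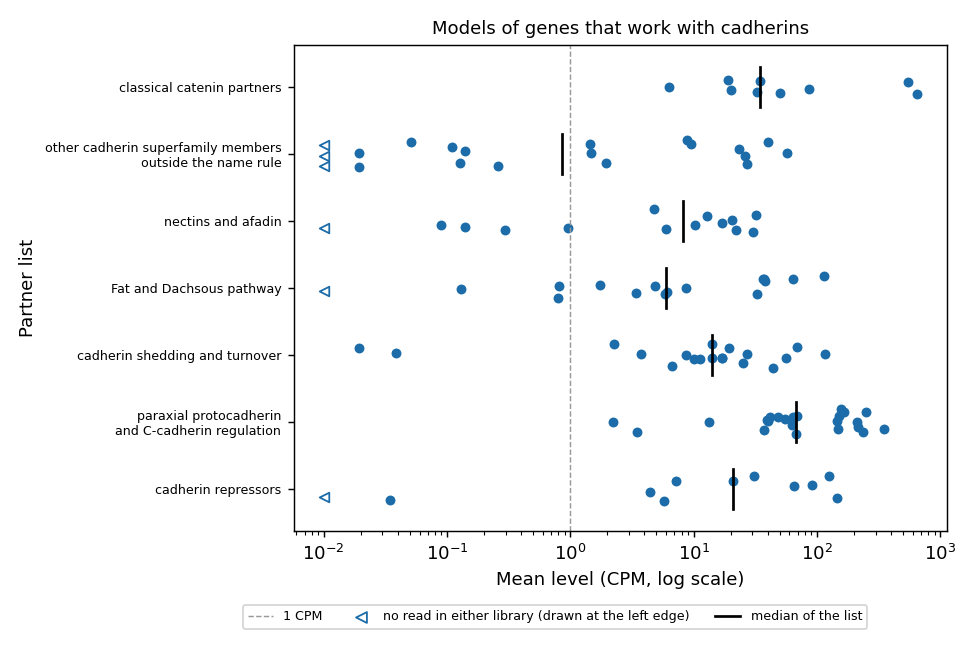
Mean level (CPM, log x axis) of every model in the 7 partner lists, 1 point a model, with the list median as a bar and 1 CPM as a dashed line. Every model of the classical catenin partners and of the PAPC and C-cadherin list lies right of that line, while the superfamily list spreads from no read to 57.2 CPM.

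X. laevis carries an L and an S copy of many genes. Over the members, 21 pairs had exactly 1 model on each of the L and S chromosomes of 1 number, and 15 of them had 10 reads in the pair in each library. The L copy was at least 2-fold higher per kilobase in both libraries in 4 of the 15 pairs, where 29.2% of all such pairs were. The S copy was in 2 of the 15, where 19.6% of all were. The median log2 ratio of L over S was 0.39, against 0.26 over all 5595 pairs. The sign was the same in both libraries in 15 of 15 pairs, though PCDH20 stood at a log2 ratio of only 0.02 in library 3. The sign was not counted over all pairs, so this is not read as a trait of the members.

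Towards S, CTNNA1 had 12.2 and 14.5 CPM per kilobase from L and 177 and 171 from S in libraries 1 and 3, a log2 ratio of -3.70 ± 0.22. PCDH7 (chromosomes 1L and 1S) also stood lower in L, at -1.20 ± 0.26, on 21 and 60 reads in all. Towards L, CDH11 stood at 1.43 ± 0.03. The chromosome 3 pair called PCDH10 had 262 reads from L and 8 from S over both libraries. Its ratio per kilobase was 25.6 (exact 95% counting interval 12.8 to 59.8). Intervals on such summed reads cover counting error only. The pair stood at 40.3 in library 1 and 16.7 in library 3. Exons fill 99.98% of the span of its 3L model and 6.72% of that of its 3S model, so these may not cover corresponding exons. CDH22 had 87 and 2 reads from L and S (ratio 18.8, 5.06 to 158), and PCDHGC5 had 2548 and 1 (ratio 947, 170 to 37427), with the unequal models described above.

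The other 9 pairs did not keep a 2-fold difference in both libraries on this scale. Of these, FAT2 had 7 reads from L and 75 from S over both libraries. Its ratio per kilobase was 0.0779 (counting interval 0.0303 to 0.169) and so far towards S. Its log2 ratio was -1.41 in library 1 and -0.50 in library 3, where its levels per kilobase, 0 and 0.0412, were below the pseudocount of 0.1. PCDH20 had 28 and 1 reads from L and S in library 1 and 21 and 14 in library 3. CDH2 stood just at the limit, with L over S at 1.98-fold in library 1 and 2.22-fold in library 3. FAT1 (0.61 ± 0.11), PCDH1 (0.31 ± 0.10) and PCDH18 (0.30 ± 0.00) were higher from L on the log2 scale, and PCDH19 (-0.36 ± 0.09) and PCDH8 on chromosome 7 (-0.59 ± 0.07) higher from S, each the same way in both libraries. How reads common to an L and an S copy were counted is not stated by the labels or headers, so ratios of very similar copies are uncertain.

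**Figure D4:**
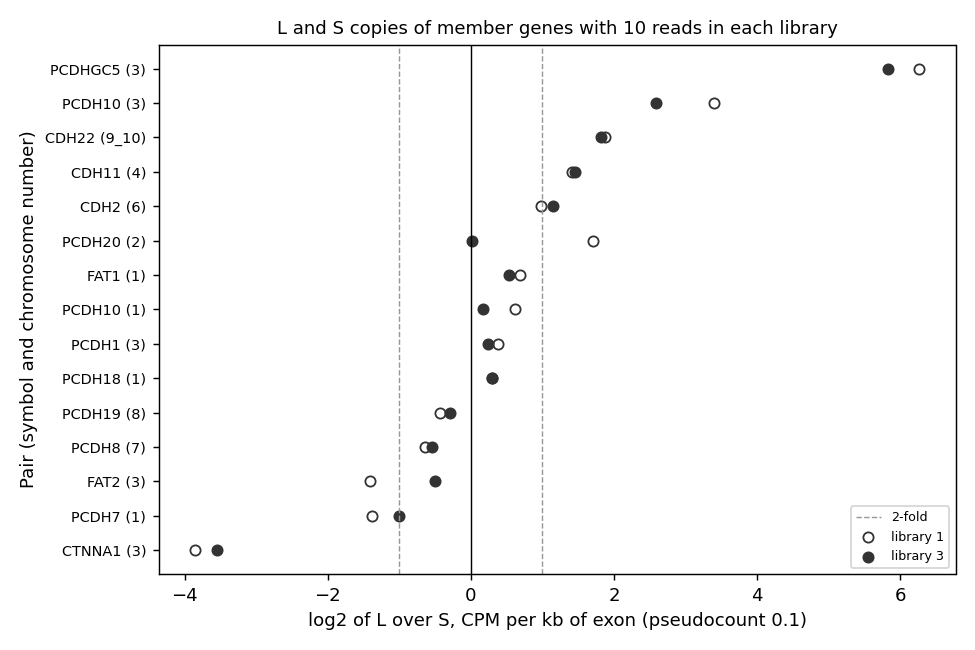
The log2 ratio of the L over the S copy (CPM per kilobase of exon, pseudocount 0.1) for the 15 member pairs with 10 reads in each library; open points are library 1, filled points library 3 and dashed lines mark 2-fold. CTNNA1 lies far left at -3.70 and PCDHGC5 far right, where the S copy has 0 and 1 reads.

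The difference between the libraries shows how far a member's level varied within the group. Its biological and technical parts cannot be told apart here. Of 46 members with at least 10 reads, 5 exceeded their library 3 level by 1.5-fold or more in library 1, where 11.0% of all such models did, and 7 did so the other way, higher in library 3, where 13.0% of all models did. Among the 22 members at 10 CPM or more, 1 passed 1.5-fold towards library 1 (4.68% of all models at that level) and 2 passed it towards library 3 (7.35%). With 1 library on each side, a call is a fold only and carries no p-value.

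The 3 abundant members past 1.5-fold were a CDH1, a CDH2 and a FAT1 model. The lower CDH1 model on 4S had a ratio of library 1 to library 3 of 2.25 (exact 95% counting interval 1.89 to 2.69), whereas the higher 4S model had 0.88 (0.84 to 0.92). The 6L copy of CDH2 had a ratio of 0.63 (0.60 to 0.66) and the 1S copy of FAT1 one of 0.66 (0.63 to 0.70). The FAT1 copy passed narrowly, at a log2 ratio of -0.60, and no longer did with the scaling factors of edgeR (-0.54) or DESeq2 (-0.56). Among low members, FAT2 on 3S had a ratio of 5.39 (2.93 to 10.7), and PCDH10 had 1.64 (1.27 to 2.11) on 3L and 0.58 (0.43 to 0.76) on 1S. The most abundant PCDH8 model, on 2L, kept a ratio of 0.97 (0.95 to 0.98), and CTNNA1 on 3S one of 1.04 (1.01 to 1.06).

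Smaller differences mostly ran one way. Among the members at 10 CPM or more, 18 of 22 were higher in library 3 (17 with TMM scaling), with a median log2 ratio of library 1 over library 3 of -0.25, against -0.07 over all 9565 models at that level. With TMM scaling these medians were -0.19 and -0.01. The 22 models carry only 12 symbols, so they are not independent. Over all models the direction was not counted at 10 CPM, so the 18 of 22 has no matching share beside it. At 10 reads or more, 31 of 46 members and 10246 of 18820 models were higher in library 3. Members are long, with a median of 3641 bases of exon against 2269 over all models. Among models of 3000 to 5000 bases at 10 CPM or more, the median was -0.23 over 14 members and -0.15 over all 2600 models, so that the median over all models was lower in this length class too. The part of exon length in the members' difference was not tested.

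Marker genes of tissues moved between the libraries as well. In the epidermis list without CDH1, 13 of 17 models with 10 reads passed 1.5-fold towards library 1 and 1 towards library 3. The summed level was 372 CPM in library 1 and 95.1 CPM in library 3. Of these sums, 172 and 31.8 CPM came from the higher KRT19 model on 9_10S. The model that passed 1.5-fold towards library 3 was TP63 on 5L (1.24 and 1.98 CPM). In the notochord list 0 of 12 passed it towards library 1 and 8 towards library 3, with sums of 441 and 788 CPM. The CHRD model on 5S alone held 271 and 453 CPM of these sums. Both FOXA2 models were higher in library 1, at 14.0 and 9.85 CPM on 5S and 6.34 and 4.93 CPM on 5L. In the paraxial mesoderm and muscle list 0 of 15 passed it towards library 1 and 4 towards library 3: TBX6 on 1L (32.1 and 86.2 CPM) and 1S (19.1 and 57.5 CPM), MYF5 on 3L and MYOD1 on 4S. Its sums, 16292 and 16578 CPM, hide this, since very abundant models such as CKM on 8L (3859 and 2865 CPM) and ACTC1 on 8L (2599 and 3546 CPM) went opposite ways. Of the pronephros markers without CDH16, both models of LHX1 passed it towards library 3 and none of 4 towards library 1. The sums of this list were 53.5 and 49.3 CPM, mostly from PAX2 (25.3 and 22.6 CPM on 7S, 24.0 and 19.4 CPM on 7L). The other lists had at most 2 models past it in either direction: neural plate markers without CDH2 2 and 1 of 7 (sums of 18.6 and 22.2 CPM), endoderm markers 1 and 0 of 8 (339 and 325 CPM), and multiciliated cell markers 1 and 1 of 5 (33.2 and 49.0 CPM). Endothelial markers without CDH5 stayed at 1.70 and 2.33 CPM in all. No read was found for both models of HHEX (endoderm), 2 of the models called KRT12 (epidermis) and the 7S model of PAX6 (neural plate). Library 1 had the higher epidermis and the lower notochord marker sum. Of the 22 members at 10 CPM or more, 4 were higher in library 1. They were the lower CDH1 model on 4S, CDH26 on 9_10S, PCDHGC5 on 3L and, narrowly, CTNNA1 on 3S. No CDH1 model, the lower one on 4S included, can be told from its symbol as E-cadherin or its neighbour. The abundant CDH1 models on 4L and 4S were lower in library 1. Those 2 are among the 18 of 22 members at 10 CPM or more that were higher in library 3, as are PCDH1, CDH2 and FAT1. As said above, that count has no matching share over all models. The part of any tissue in these differences was not tested. In pooled tissue, fewer cells of a type and less RNA per cell cannot be told apart.

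**Figure D5:**
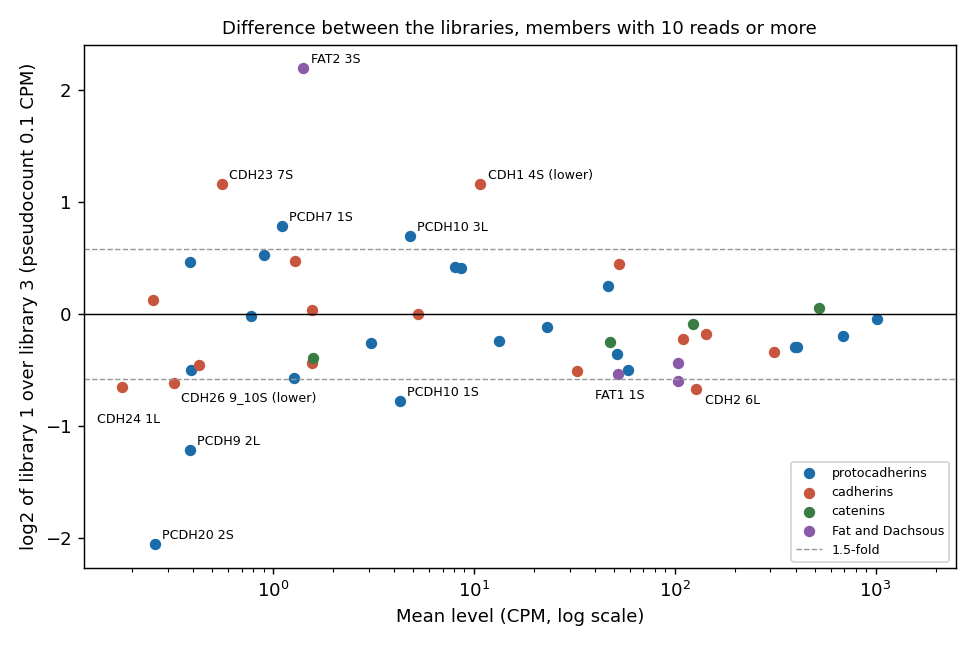
The log2 ratio of library 1 over library 3 (pseudocount 0.1 CPM) against mean CPM (log x axis) for the 46 members with at least 10 reads, coloured by family; dashed lines mark 1.5-fold and models beyond them are named. The 5 models above and 7 below are mostly at low levels. Of the 22 models at a mean of 10 CPM or more, 18 lie below 0, and the median log2 ratio of the 22 is -0.25. The median over all 9565 models at that level is -0.07, and the share of them below 0 was not counted. Of these 22 models, 1 lies above the dashed lines and 2 lie below them.

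The gene models also differ in build. In protocadherins a median of 53.6% of the genomic span of a model lay in exons, against 5.83% in cadherins, 6.90% in catenins, 22.9% in Fat and Dachsous genes and 12.0% over all models. In 15 of 28 protocadherin models at least 50% of the span was exonic, which held for 0 of 30 cadherin models and for 7.26% of all models. The compact models include the abundant PCDH8 models on 2L (58.2%) and 7S (52.8%), and PCDH18 (54.4% on 1L and 54.8% on 1S). The exceptions include PCDH1 (2.86% on 3L) and PCDH19 (3.54% on 8L), which are spread over long introns. A single large exon for the extracellular part is the known layout of protocadherin genes.

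On 4L the models of CDH11, CDH5, CDH1, CDH13 and CDH16 lie in that order between positions 47100443 and 55933976, and of these 6 models 1 CDH1 model and CDH11 reached 1 CPM in both libraries. On 6L CTNND2, CDH6, CDH20, CDH2 and CDH17 are spread more widely, between 68709734 and 128724162, and CTNND2, CDH20 and CDH2 reached it. Models above and below 1 CPM were thus interspersed on both chromosomes.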

How the data were processed

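RNA of 2 pools of animal caps was measured by polyA RNA-seq with a kit that does not mark strand. Per the submitters' processing notes, the authors used FastQC, STAR 2.4.0k, HOMER and edgeR. Per the file headers, HOMER counted exon reads on Mayball gene models of assembly version 9.1 and rescaled them. The deposited signal is that count times 1 constant per library. Dividing by the value of 1 read (0.808 in library 1, 0.715 in library 3) turned 100% of nonzero values into whole reads (tolerance 0.05). The recovered reads are 69.5% and 68.0% of the aligned tags in the headers. The headers name 4 libraries; the other 2 were not analysed here, and 0 columns of other samples were used. Models without a symbol hold 1.24% of reads and stayed in the totals. With 1 group no count test could be fitted, so 0 genes were called by one; edgeR 4.0.16 and DESeq2 1.42.0 served for scaling factors only.

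Counts of the libraries differed by more than sampling noise (chi-square 45.6 per degree of freedom). Library ratios used a pseudocount of 0.1 CPM and 10 reads in both libraries together; their intervals are exact binomial ones on reads without a pseudocount. Named are all members at a mean of 10 CPM or more and, from each partner list, the 4 highest models, of which 1 is not reported here; other members are named to account for all. The members and lists were chosen with earlier results of these data known. Of the 36 member symbols, 29 matched a RefSeq name of version 10.1. Alternatives were TMM and DESeq2 scaling, other read minimums, pseudocounts, folds and levels, and leaving out a library.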

Additional observations from a re-analysis of the deposited data

How the results depend on the processing

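No paired analysis was possible because there is 1 group. The 33 members at 1 CPM in both libraries were 33 with TMM or DESeq2 scaling and 33 to 36 in single libraries, 25 at 1 CPM per kilobase and 21 at 10 CPM. The share of reads, 0.450%, was 0.422 to 0.477% in single libraries and 0.199% without PCDH8. Members 1.5-fold apart, 5 towards library 1 and 7 towards library 3, became 2 and 3 with a minimum of 100 reads, 2 and 3 with a pseudocount of 1 CPM, and 3 and 2 at 2-fold, as these settings remove low or small differences by construction; TMM left 5 and 5, DESeq2 scaling 5 and 6, and no read minimum gave 6 and 9. The 6 pairs 2-fold apart became 2 with a pseudocount of 1, 4 with 100 reads, 6 with 1 read, 8 without length correction, and 7 to 8 in single libraries. TMM or DESeq2 scaling moved none of the 22 named levels by more than its SD, and at most by 0.780%. This follows largely by construction, since a level is a mean over both libraries and the factors raise library 1 and lower library 3. Partner list medians ranged over single libraries from 32.9 to 36.8 CPM (catenin partners), 0.696 to 0.923 (superfamily), 7.82 to 8.83 (nectins), 5.45 to 6.53 (Fat and Dachsous), 12.9 to 15.6 (shedding), 61.0 to 76.7 (PAPC and C-cadherin) and 16.2 to 25.9 CPM (repressors). For members with fewer than 10 reads, depth does not show a difference between the libraries.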
